A study of Arabidopsis thaliana with 9 samples.

Results

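The 6 sepal libraries of the mutants gir1-1 and atml1-3 were compared as one side with the 3 wild-type libraries, to ask which nuclear genes shift the same way when either gene is mutated. All 9 libraries of the study enter, 3 of wild-type Col-0 (WT), 3 of gir1-1 and 3 of atml1-3. The quantity tested for each gene is the mean of the gir1-1 and the atml1-3 log2 fold changes against WT, called the mean mutant effect here, and a gene counts only when both changes have the same sign. The deposited table lists 38299 genes, of which 37884 are nuclear, and 19082 of these had enough reads to be tested. Plants of all genotypes grew at 23 °C in continuous light and carry the same batch label. Each library holds RNA of 200 sepals from 50 unopened buds at floral stage 12, so it averages over many buds and over all cell types of the sepal. Each mutant is represented by a single allele, and no rescued line was compared here. Both mutant effects are measured against the same 3 WT libraries, so a WT value that is high or low moves both in the same direction.

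ATML1 is an HD-ZIP IV homeodomain transcription factor that sets epidermal identity in shoots and, in sepals, promotes giant cells, which are large endoreduplicated cells of the epidermis. HD-ZIP IV proteins bind a short DNA word, the L1 box, found upstream of many genes of the outermost cell layer, among them genes for the waxy cuticle. GIR1 is a small plant protein that links transcription factors to the co-repressor TOPLESS (TPL), and the title of the series places ATML1, GIR1 and TPL in a common repression module that acts on glucosinolates and giant cells. MAF5, the gene that leads the results, encodes a MADS-box protein of the FLC family, which includes repressors of flowering.

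The upstream DNA of MAF5 is shown because it was the gene called, and that of BXL2, a beta-xylosidase gene with lower values in both mutants, because it holds an L1 box close to its annotated start. Both stretches come from the TAIR10.1 RefSeq genome, lie on the plus strand like their genes, are written 5′ to 3′ and end at the base before the annotated start, at chr5:25997204-25997503 for MAF5 and chr1:563718-564017 for BXL2. Capitals mark the L1 box.
MAF5: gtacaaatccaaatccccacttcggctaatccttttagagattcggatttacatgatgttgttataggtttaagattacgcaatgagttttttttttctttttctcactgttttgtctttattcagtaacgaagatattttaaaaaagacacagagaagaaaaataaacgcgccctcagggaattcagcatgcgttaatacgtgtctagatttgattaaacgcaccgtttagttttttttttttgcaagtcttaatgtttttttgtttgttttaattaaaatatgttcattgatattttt
BXL2: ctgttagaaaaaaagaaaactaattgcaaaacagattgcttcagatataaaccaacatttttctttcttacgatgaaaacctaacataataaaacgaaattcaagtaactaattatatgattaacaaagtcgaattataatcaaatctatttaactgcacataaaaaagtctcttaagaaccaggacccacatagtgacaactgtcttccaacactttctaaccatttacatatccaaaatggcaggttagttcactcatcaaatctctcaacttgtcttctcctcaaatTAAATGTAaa
The letters searched were TAAATGCA and TAAATGTA on both strands. The 300 bases before MAF5 hold neither, and those before BXL2 hold TAAATGTA with its first base 10 bases before the start. Among all 19081 tested genes with such a stretch, 5.403% hold an L1 box, which gives 1031 genes.

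The libraries held between 15328056 and 20148807 counts. Levels are given as CPM, in which the counts of each library are brought to a common nuclear total after TMM scaling for library composition; CPM is not divided by gene length, so it serves to compare libraries and not genes. Sepal identity genes were present in all 9 libraries, with AP1 between 180.0 and 285 CPM and SEP3 between 187 and 286 CPM. The petal and stamen identity gene AP3 was read as well. It was at 21.4 to 47.7 CPM in WT, 28.1 to 46.0 CPM in gir1-1 and 47.4 to 65.9 CPM in atml1-3. PI, also of petals and stamens, was at 0.377 to 5.62 CPM. The part of petal or stamen RNA in the results was not tested. Of the 12 anther and pollen markers, MS2, A9, ACOS5 and CYP703A2 were at 0 in all 9, but VGD1 was read at 32.9 to 162 CPM, LAP6 at 3.18 to 6.74 CPM and QRT3 at 2.26 to 5.69 CPM; the 3 lay in overlapping ranges in WT and mutants, and the part of anther or pollen RNA in the results was not tested. In addition, the epidermis marker PDF1 was between 0 and 0.835 CPM although the epidermis markers FDH, CER1 and CER6 were all at or above 219 CPM. One library stood apart: replicate 3 of gir1-1 lay at 48.0 on the first principal component, which held 43.3% of the variance of the 500 most variable genes and placed the other 8 libraries between -27.8 and 21.0. Nothing in the labels says that the libraries of a genotype came from separate plantings, so the p-values measure the spread between these libraries only.

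Both mutated genes were lower in all 6 mutant libraries than in all 3 WT libraries, a separation found for 377 of the genes tested (1.98%). GIR1 (AT5G06270, chromosome 5, 1912013 to 1913728, plus strand) was at 1.49, 2.19 and 4.29 CPM in WT, against 0.679, 0.610 and 0.344 CPM in gir1-1 and 0.881, 0.482 and 1.01 CPM in atml1-3. It was low in the atml1-3 libraries as well as in those of gir1-1, with log2 fold changes of -2.28 for gir1-1 and -1.75 for atml1-3. ATML1 (AT4G21750, chromosome 4, 11555039 to 11560771, plus strand) was at 29.9, 32.7 and 51.3 CPM in WT, against 24.0, 23.9 and 15.97 CPM in gir1-1 and 7.80, 16.6 and 15.9 CPM in atml1-3. Its log2 fold changes were -0.83 for gir1-1 and -1.50 for atml1-3, so each gene was lower in the mutant of the other gene too. Neither passed the threshold: the mean mutant effect was -2.01 (SE 0.44) for GIR1 and -1.16 (SE 0.26) for ATML1, both with a Benjamini-Hochberg adjusted p of 0.363 in the edgeR quasi-likelihood test. DESeq2's Wald test gave adjusted p-values of 0.0240 and 0.0178 for the same genes.

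One gene, MAF5, passed the threshold of an adjusted p under 0.05 with the same sign in both mutants, which is 0.00524% of the 19082 genes tested. MAF5, locus AT5G65080 at chr5:25997504-26002619 with 5 or 6 exons, was at 13.4, 17.77 and 21.6 CPM in WT, against 2.55, 2.87 and 2.60 CPM in gir1-1 and 9.81, 10.7 and 10.4 CPM in atml1-3. All 6 mutant values lay below the lowest WT value, the gir1-1 values were the lowest, and the atml1-3 values lay between. These levels rest on 234, 292 and 367 counts in WT, on 45, 47 and 53 counts in gir1-1 and on 156, 221 and 174 counts in atml1-3. The mean mutant effect was a fall of 3.35-fold, a log2 value of -1.74 (SE 0.17) with a Benjamini-Hochberg adjusted p of 0.0281 in the edgeR quasi-likelihood test. It was made of unequal parts, -2.72 for gir1-1 and -0.77 for atml1-3, and the difference between the mutants itself passed, with a log2 value of 1.94 and an adjusted p of 0.0178 by edgeR, one of 16 genes (0.0838%) for which it did. In libraries of whole sepals, fewer cells that express a gene and less RNA per cell cannot be told apart.

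The call for MAF5 rested on all 6 mutant libraries and 2 of the WT libraries: the adjusted p by edgeR was 0.166, 0.104 and 0.133 without gir1-1 replicate 1, 2 or 3, 0.184, 0.175 and 0.209 without atml1-3 replicate 1, 2 or 3, and 0.136 and 0.0667 without WT replicate 2 or 3, whereas it was 0.0204 without WT replicate 1. The log2 value stayed between -1.91 and -1.57 in these 9 fits. Limma-voom, which also missed the threshold, gave -1.71 with an adjusted p of 0.107. With the mutants as 1 factor the value was -1.44 and the adjusted p by edgeR was 0.460. MAF5 did pass under the Wald test of DESeq2, at -1.75 with an adjusted p of 1.6e-11. In the authors' deposited table, the log2 fold change of MAF5 is -2.72 for gir1-1 (adjusted p 1.16e-14) and -0.78 for atml1-3 (adjusted p 0.109).

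In the other tested MADS-box genes of the FLC and MAF group the mutant and WT libraries overlapped. MAF2, at the other end of the same gene row on chromosome 5, was at 54.1, 60.4 and 56.7 CPM in WT, against 52.7, 57.5 and 56.0 CPM in gir1-1 and 64.2, 64.7 and 67.5 CPM in atml1-3. MAF3, its neighbour, was at 19.0, 20.3 and 18.17 CPM in WT, against 17.5, 21.5 and 20.7 CPM in gir1-1 and 22.3, 21.0 and 23.3 CPM in atml1-3. WT and gir1-1 values of both genes lay close together, the atml1-3 values were slightly higher, and the mean mutant effect was 0.08 (SE 0.10) for MAF2 and 0.13 (SE 0.13) for MAF3. MAF4, which directly precedes MAF5 on the chromosome, was read at a far lower depth, between 10 and 27 counts in every library, and had a mean mutant effect of -0.18 (SE 0.43). MAF1, on chromosome 1, had -0.01 (SE 0.15), and SVP, another MADS-box repressor of flowering, had 0.13 (SE 0.30), and the adjusted p by edgeR was 0.749 or higher for these 5 genes. FLC itself was not tested, since it had 3, 0 and 5 counts in WT and 0 in each of the 6 mutant libraries, which allows up to between 0.145 and 0.189 CPM there. Other places in the genome hold 1.188% of the 32-base words in the exons of MAF5, and no annotated gene overlaps it.

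**Figure D1:**
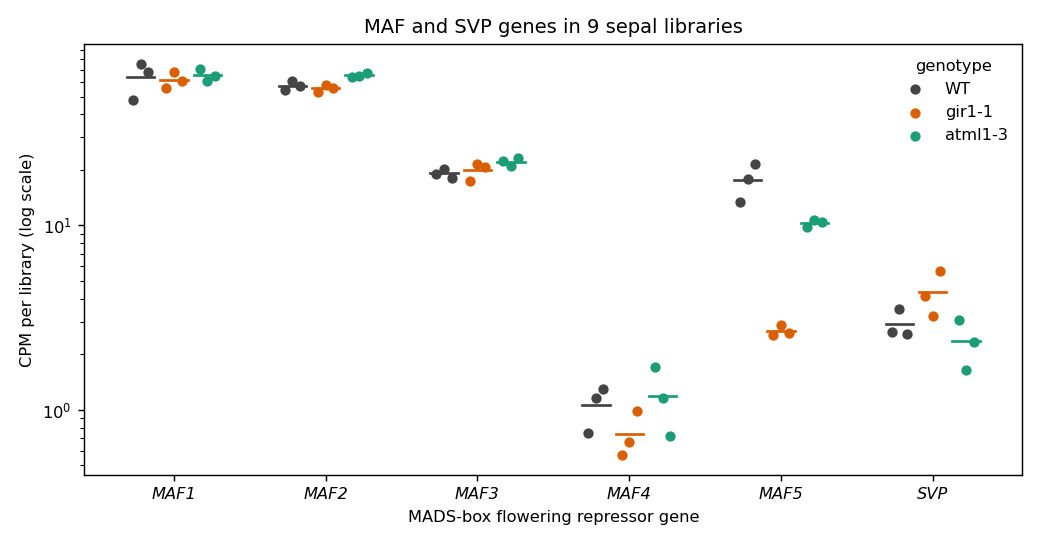
Levels of 5 MAF genes and SVP in each library, in CPM on a log axis; points are single libraries (WT grey, gir1-1 orange, atml1-3 green) and short lines the mean of 3. MAF5 is the gene whose mutant points all lie below the WT points, at 2.55 to 2.87 CPM in gir1-1 and 9.81 to 10.7 in atml1-3 against 13.4 to 21.6 in WT.

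At an unadjusted p under 0.05 by edgeR with the same sign in both mutants there were 1907 genes, which is 9.99% of those tested, with 844 higher (4.42%) and 1063 lower (5.57%) in the mutants. Another 15 genes, 0.0786%, had an unadjusted p under 0.05 with opposite signs. No gene that was higher in the mutants passed after adjustment, and the lowest adjusted p after that of MAF5 was 0.363. DESeq2's Wald test, which estimates the spread differently, called 123 of 18783 genes with the same sign, 37 higher and 86 lower. Of the 123, 96 had no overlap between mutant and WT libraries, beside 4.19% of all genes tested by edgeR. Calls and overlap use the same libraries, so the overlap is no separate support for the calls. The direction of the balance depended on the scaling: with total nuclear counts in place of TMM the genes at an unadjusted p under 0.05 were 1241 higher and 707 lower, and the median of all genes moved from -0.01 to 0.06 on the log2 scale.

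The 6 mutant libraries lay wholly above or wholly below the 3 WT libraries for 799 genes, 4.19% of those tested, of which 422 (2.21%) were higher and 377 (1.98%) lower. With total nuclear counts these were 583 higher and 250 lower. Among them, 54 genes were at least 2-fold higher (0.283%) and 82 at least 2-fold lower (0.43%). An L1 box stood in the 300 bases before 26 of the 377 lower genes, which is 6.897%, and before 15 of the 422 higher genes, which is 3.555%, beside 5.403% of all genes.

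**Figure D2:**
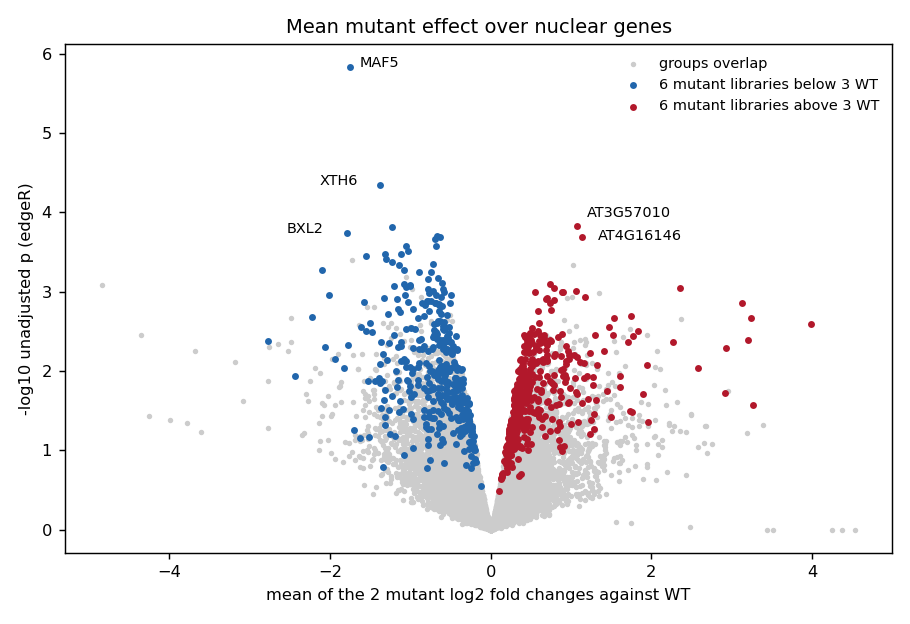
Each point is a nuclear gene, with the mean of both mutant log2 fold changes against WT on the x axis and -log10 of the unadjusted edgeR p on the y axis. Coloured points are the 422 genes whose 6 mutant libraries all lie above WT (red) and the 377 whose libraries all lie below (blue); MAF5 stands alone at the top and XTH6 follows.

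The 8 places for genes named on the lower side went to MAF5 and those next by p. For the latter, no overlap and a mean of at least 10 counts were required. Beside MAF5, 3 of these genes act on the cell wall, a grouping made after their values were seen. All except MAF5 had an adjusted p of 0.363 by edgeR and did not pass the threshold. XTH6 (AT5G65730), a xyloglucan endotransglucosylase that cuts and rejoins wall xyloglucan, was at 447, 513 and 557 CPM in WT, against 198, 124 and 143 CPM in gir1-1 and 311, 175 and 249.6 CPM in atml1-3. Every WT library was above every mutant library, and the mean mutant effect was -1.37 (SE 0.20). BXL2 (AT1G02640), a beta-xylosidase, was at 51.2, 16.3 and 48.2 CPM in WT, against 9.45, 12.7 and 15.97 CPM in gir1-1 and 8.56, 10.13 and 10.6 CPM in atml1-3. Replicate 2 of WT was nearly as low as the highest mutant library, and the mean mutant effect of BXL2 was -1.79 (SE 0.31); without that WT library it was -2.16 with an adjusted p of 0.0226 by edgeR. PG2 (AT1G70370), a polygalacturonase that acts on pectin, was at 103, 96.0 and 104 CPM in WT, against 52.3, 32.9 and 60.1 CPM in gir1-1 and 38.5, 60.0 and 48.6 CPM in atml1-3. Its values did not overlap either, and its mean mutant effect was -1.05 (SE 0.19).

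The remaining places on the lower side went to genes of other kinds. NUDT21 (AT1G73540), a nudix hydrolase, was at 73.2, 57.6 and 53.5 CPM in WT, against 35.2, 20.9 and 45.6 CPM in gir1-1 and 21.5, 19.3 and 19.6 CPM in atml1-3, with its lowest values in atml1-3 and in replicate 2 of gir1-1. AT2G37050, a leucine-rich repeat protein kinase, was at 46.8, 45.9 and 48.9 CPM in WT, against 29.5, 29.5 and 22.8 CPM in gir1-1 and 32.3, 31.2 and 33.1 CPM in atml1-3. The WT values of AT2G37050 spanned 45.9 to 48.9 CPM and its mutant values 22.8 to 33.1 CPM, with a mean mutant effect of -0.67. The gap between them was a condition of the choice. CCP1 (AT2G34560), annotated as a P-loop nucleoside triphosphate hydrolase, was at 56.6, 59.9 and 61.0 CPM in WT, against 38.8, 33.5 and 40.6 CPM in gir1-1 and 37.4, 42.5 and 35.6 CPM in atml1-3. AT1G15290, a tetratricopeptide repeat protein, was at 138, 139.9 and 119 CPM in WT, against 93.9, 91.9 and 79.6 CPM in gir1-1 and 65.4, 82.8 and 79.2 CPM in atml1-3. The mean mutant effects of NUDT21, CCP1 and AT1G15290 were -1.23 (SE 0.21), -0.64 (SE 0.11) and -0.69 (SE 0.12). Just outside these places stood the aquaporin gene PIP1;5, at 562, 573 and 553 CPM in WT, against 318, 265 and 247 CPM in gir1-1 and 465, 431 and 434 CPM in atml1-3, with a mean mutant effect of -0.68 (SE 0.12).

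On the higher side the 8 genes named are those with the smallest p among genes with no overlap and a mean of at least 10 counts. They are mostly known only by locus, and all had an adjusted p of 0.363 by edgeR. GSTF9, with an unadjusted p of 0.00046 by edgeR, was left out because its groups overlapped. AT3G57010, annotated as a calcium-dependent phosphotriesterase family protein, was at 6.13, 5.72 and 5.76 CPM in WT, against 11.7, 9.89 and 12.1 CPM in gir1-1 and 16.7, 11.2 and 13.3 CPM in atml1-3. The 3 WT libraries differed by less than 0.5 CPM, all mutant values were above 9 CPM, and the mean mutant effect was 1.08 (SE 0.18). AT4G16146, related to cAMP-regulated phosphoproteins, was at 25.0, 17.7 and 17.7 CPM in WT, against 58.1, 37.8 and 57.8 CPM in gir1-1 and 42.7, 41.3 and 31.4 CPM in atml1-3, with a mean mutant effect of 1.14 (SE 0.20). AT3G16990, a protein resembling heme oxygenase, was at 12.3, 10.8 and 8.88 CPM in WT, against 14.0, 28.9 and 26.0 CPM in gir1-1 and 21.5, 21.7 and 21.0 CPM in atml1-3. Replicate 1 of gir1-1 was close to WT for AT3G16990 and the other 5 mutant libraries were at or above 21.0 CPM. A gene on the other strand overlaps 44.34% of its exon length, and that gene has 35 counts over all libraries; whether counting used strand is not given in the sources used here.

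AT1G49370, a pseudogene of an amino acid transporter, had the largest mean mutant effect of the 8, 2.35 (SE 0.50), from 0.229, 0.304 and 0.294 CPM in WT, against 1.75, 2.14 and 1.87 CPM in gir1-1 and 0.755, 1.78 and 0.656 CPM in atml1-3. These are low levels, with a mean of 19.8 counts per library. AT5G30495, a protein of pre-rRNA processing, was at 7.62, 7.12 and 8.70 CPM in WT, against 14.9, 11.8 and 14.2 CPM in gir1-1 and 12.8, 12.1 and 12.5 CPM in atml1-3. AT4G35840, a RING/U-box protein, was at 12.8, 12.3 and 11.6 CPM in WT, against 17.3, 17.76 and 26.2 CPM in gir1-1 and 20.6, 24.3 and 21.1 CPM in atml1-3. In neither gene did WT and mutants overlap, a condition of the choice, and the mean mutant effects were 0.74 (SE 0.16) and 0.79 (SE 0.17). AT5G59845, of the gibberellin-regulated family, and AT1G70640, a PB1 domain protein, had 0.88 (SE 0.19) and 0.90 (SE 0.20). The first gene outside these places was AT1G20580, a small nuclear ribonucleoprotein gene, with 0.55 (SE 0.12).

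**Figure D3:**
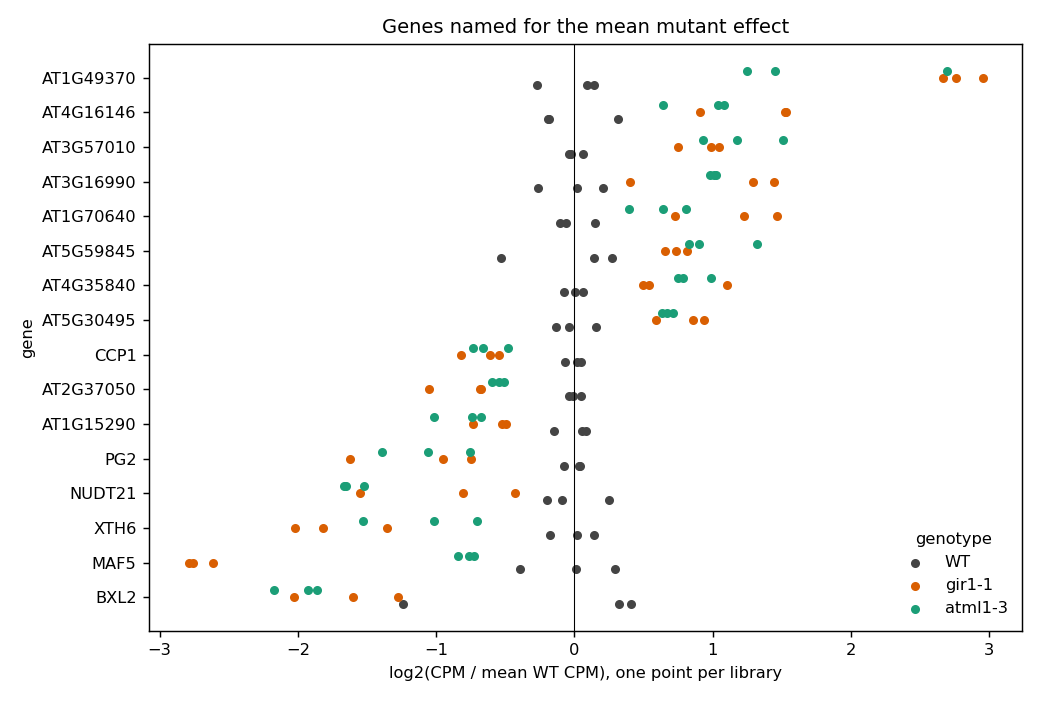
Level of each of the 16 genes named for the smallest p, as log2 of CPM over the WT mean; each point is a library (WT grey, gir1-1 orange, atml1-3 green). WT points lie apart from mutant points in all 16, which the choice of genes required of all except MAF5. The gap is narrowest in BXL2, where a WT library at 16.3 CPM is next to the mutant library just below it.

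Larger differences were found among genes read at lower or more variable levels. With no overlap, the same sign, at least 2-fold and a mean of at least 50 counts, 12 genes were higher (0.0629%) and 46 lower (0.241%), and the 10 with the largest difference on each side were looked at, chosen after their values were seen. AT1G26790, a Dof-type zinc finger gene, had the largest value on the lower side, -2.22 (SE 0.54), from 7.39, 13.8 and 3.59 CPM in WT, against 1.53, 2.99 and 0.393 CPM in gir1-1 and 1.26, 2.36 and 2.09 CPM in atml1-3. AT1G21540, of the AMP-dependent ligase family, was at 10.03, 5.90 and 25.5 CPM in WT, against 2.83, 3.78 and 4.03 CPM in gir1-1 and 2.14, 4.44 and 2.21 CPM in atml1-3. Its WT values spread from 5.90 to 25.5 CPM and its mutant values from 2.14 to 4.44 CPM, and its mean mutant effect was -2.09 (SE 0.42). BAS (AT1G78950), a beta-amyrin synthase that makes a triterpene, was at 20.5, 12.96 and 10.11 CPM in WT, against 8.04, 3.66 and 2.51 CPM in gir1-1 and 1.26, 7.09 and 3.04 CPM in atml1-3, with a mean mutant effect of -1.77 (SE 0.49). MYB77 (AT3G50060), a MYB transcription factor linked to auxin responses in roots, was at 43.3, 18.3 and 54.7 CPM in WT, against 17.77, 8.12 and 13.9 CPM in gir1-1 and 17.0, 7.52 and 13.7 CPM in atml1-3. Replicate 2 of WT was close to the mutants for MYB77 as it was for BXL2, and its mean mutant effect was -1.58 (SE 0.36). AT4G29780, annotated as a nuclease, was at 283, 152 and 218 CPM in WT, against 84.3, 51.6 and 143 CPM in gir1-1 and 70.1, 44.9 and 61.7 CPM in atml1-3, with -1.56 (SE 0.29). AT4G09160 and AT4G15430 had -1.62 and -1.50. The level of AT2G01021 is uncertain, because other places in the genome hold 100% of its 32-base words.

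On the higher side, AT4G02360, a DUF538 protein, was at 1.03, 1.95 and 1.94 CPM in WT, against 4.25, 5.25 and 8.84 CPM in gir1-1 and 6.98, 6.61 and 1.97 CPM in atml1-3, with a mean mutant effect of 1.78 (SE 0.47). AT2G41190, an amino acid transporter of the same annotated family as the parent of the AT1G49370 pseudogene, was at 46.8, 34.5 and 40.3 CPM in WT, against 53.0, 168 and 114 CPM in gir1-1 and 133, 142 and 62.4 CPM in atml1-3. Both mutants contributed alike to AT2G41190, with 1.46 for gir1-1 and 1.47 for atml1-3. PRR3 (AT5G60100), a pseudo-response regulator of the circadian clock, was at 11.1, 6.51 and 13.8 CPM in WT, against 32.9, 17.9 and 25.5 CPM in gir1-1 and 21.2, 24.3 and 20.4 CPM in atml1-3. All 6 mutant libraries lay above all WT libraries, for a mean mutant effect of 1.18 (SE 0.26). BBX16 (AT1G73870), a B-box zinc finger gene, had 1.302 (SE 0.34), and ERO1 (AT1G72280), which serves disulfide formation in the endoplasmic reticulum, had 1.11 (SE 0.33). AT5G47920 had 1.17 and RLP35, a receptor-like protein gene with 22.03% of its 32-base words shared with other places, 1.21. An L1 box stands upstream of BXL2, RLP35 and BAS among the genes of both sides and not upstream of MAF5 or XTH6. The adjusted p-values by edgeR of all these genes except MAF5 were 0.363 or higher.

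Of the 31 tested genes for cuticle and wax, 10 were lower and 0 higher at an unadjusted p under 0.05 by edgeR with the same sign, which is 32.3%, beside 9.99% of all genes. The median mean mutant effect of the list was -0.45, beside -0.01 over all genes, with -0.40 in gir1-1 and -0.58 in atml1-3. None passed after adjustment, and no member had its 6 mutant libraries wholly below WT. The 10 cover several steps: the transcription factors SHN3 (-1.64) and MYB16 (-0.73), the fatty acid hydroxylases CYP86A2 (-0.99) and CYP86A8 (-0.63), the acyltransferases GPAT4 (-0.62), GPAT8 (-0.67) and DCR (-0.54) of cutin synthesis, and KCS1 (-0.59), FDH (-0.45) and the alcohol-forming reductase CER4 (-0.69) of wax and fatty acid elongation. MYB16 was at 45.2, 36.0 and 67.7 CPM in WT, against 32.7, 26.6 and 36.3 CPM in gir1-1 and 20.6, 36.1 and 26.9 CPM in atml1-3, so that 1 atml1-3 and 1 gir1-1 library overlapped with the lowest WT library. CER4 was at 124, 204 and 227 CPM in WT, against 156, 68.6 and 67.4 CPM in gir1-1 and 122, 146 and 140.4 CPM in atml1-3. An L1 box stands in the 300 bases before 5 of the 31, which is 16.129%, beside 5.403% of all genes. Over the 26 gene lists this share ran from 0% to 28.571%. It was 16.667% in the list of glucosinolate breakdown, whose median mean mutant effect was 0.06. Whether the 10 lower genes hold more L1 boxes than the rest of the cuticle and wax list was not tested.

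The count depended on the libraries used. It was 2 of 31 without WT replicate 3, where the median was -0.31, and 8 of 31 without WT replicate 1 or 2. Leaving out atml1-3 replicate 1, 2 or 3 gave 5, 15 and 5, and leaving out gir1-1 replicate 1, 2 or 3 gave 11, 8 and 7. It was 5 with total nuclear counts and 3 with limma-voom and library quality weights. The summed level of the 8 epidermis markers ran from 2966 to 3250.2 CPM in WT, from 1855 to 2984 CPM in gir1-1 and from 2018 to 2605 CPM in atml1-3, with none of the 8 at 0 in all libraries. FDH, CER1, CER6 and CUS2 belong to both lists, so they share genes. The sum rests mainly on FDH, CER1 and CER6, and so largely repeats the cuticle list. Of the markers outside that list, PDF2 was at 39.7 to 56.7 CPM in WT and 31.4 to 42.4 CPM in the mutants. ACR4 was at 9.28 to 14.2 CPM in WT and 5.10 to 9.83 CPM in the mutants. Both overlapped, whereas ATML1 did not. The part of cell composition in these differences was not tested.

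Several markers of epidermal cell types had lower values too. Of 7 tested epidermis markers 2 were lower and 0 higher at an unadjusted p under 0.05 by edgeR (28.6%), beside 9.99% of all genes in either direction and 5.57% lower; they were ATML1 itself and FDH, and the list median was -0.45. That count was between 1 and 5 with 1 library left out, the 5 without atml1-3 replicate 2. Among 4 guard cell markers 3 were lower (75%, beside 5.57% of all genes), FAMA (-0.42), SCAP1 (-0.55) and MYB60 (-0.41), whereas the potassium channel KAT1 had 0.14. FAMA, a transcription factor that completes guard cell formation, was at 73.4, 78.4 and 96.6 CPM in WT, against 54.8, 65.6 and 45.8 CPM in gir1-1 and 59.6, 80.8 and 65.6 CPM in atml1-3, with 1 atml1-3 library inside the WT range. Without WT replicate 3 none of the 4 guard cell markers had an unadjusted p under 0.05 by edgeR, and 1 of them did without gir1-1 replicate 3, without atml1-3 replicate 1 or 3, or with total nuclear counts. The summed level of the guard cell markers was 132 to 166 CPM in WT and 96.8 to 139 CPM in the mutants. In the stomatal lineage list 2 of 7 were lower (28.6%, beside 5.57% of all genes), the same FAMA and SCAP1, whereas EPF1 had 0.375. The count of lower genes was between 0 and 3 with 1 library left out, the 0 without WT replicate 3.

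Of 9 tested HD-ZIP IV genes, 3 were lower and 0 higher at an unadjusted p under 0.05 by edgeR (33.3%, beside 5.57% of all genes that were lower). They were ATML1, HDG1 and HDG12, and the list median was -0.29. ATML1 is itself the gene mutated in atml1-3, so it was not an independent member of this count. HDG12 was at 2.35, 2.25 and 3.65 CPM in WT, against 1.42, 1.59 and 0.983 CPM in gir1-1 and 1.01, 2.17 and 1.13 CPM in atml1-3, and its highest mutant value was just below its lowest WT value. HDG1 had -0.50 (SE 0.17). Without WT replicate 3 the counts were 1 lower and 1 higher. TPL, the co-repressor, was at 309, 280.1 and 226 CPM in WT, against 175, 260.0 and 191 CPM in gir1-1 and 215, 210.1 and 258 CPM in atml1-3, with overlapping groups and a mean mutant effect of -0.32. Among the 7 genes of the GIR adaptors and TOPLESS co-repressors, GIR1 was the only one at an unadjusted p under 0.05 by edgeR (14.3%). GIR1 is itself the gene mutated in gir1-1. The number lower was 3 without WT replicate 3 and 2 without gir1-1 replicate 2. GIR2, the paralogue of GIR1, had 0.74 in the mean from 1.57 for gir1-1 and -0.08 for atml1-3.

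Giant cell and cell cycle genes had few members at an unadjusted p under 0.05 by edgeR with the same sign, beside 9.99% of all genes. In the list for giant cells and endoreduplication 1 of 13 was lower (7.69%), DEK1, a membrane calpain of the epidermis, with -0.37 (SE 0.12) and a list median of -0.23. The count was 3 without atml1-3 replicate 2 and 2 without gir1-1 replicate 2 or WT replicate 1, and without WT replicate 3 it was 1 lower and 1 higher with a median of -0.10. LGO, the cyclin-dependent kinase inhibitor that promotes giant cells, was at 15.5, 21.1 and 29.5 CPM in WT, against 14.2, 23.0 and 17.5 CPM in gir1-1 and 50.5, 27.9 and 41.0 CPM in atml1-3. Its changes had opposite signs, -0.28 for gir1-1 and 0.85 for atml1-3. Of 18 genes for mitosis and DNA replication 1 was lower (5.56%), the cytokinesis syntaxin KN, with a list median of -0.35; the count was 0 without WT replicate 2 and 2 without WT replicate 1 or atml1-3 replicate 3. KN was at 3.55, 3.83 and 2.35 CPM in WT, against 2.26, 1.77 and 1.72 CPM in gir1-1 and 0.440, 1.302 and 1.55 CPM in atml1-3, and a gene on the other strand that holds 17082 counts overlaps 33.478% of its exon length.

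**Figure D4:**
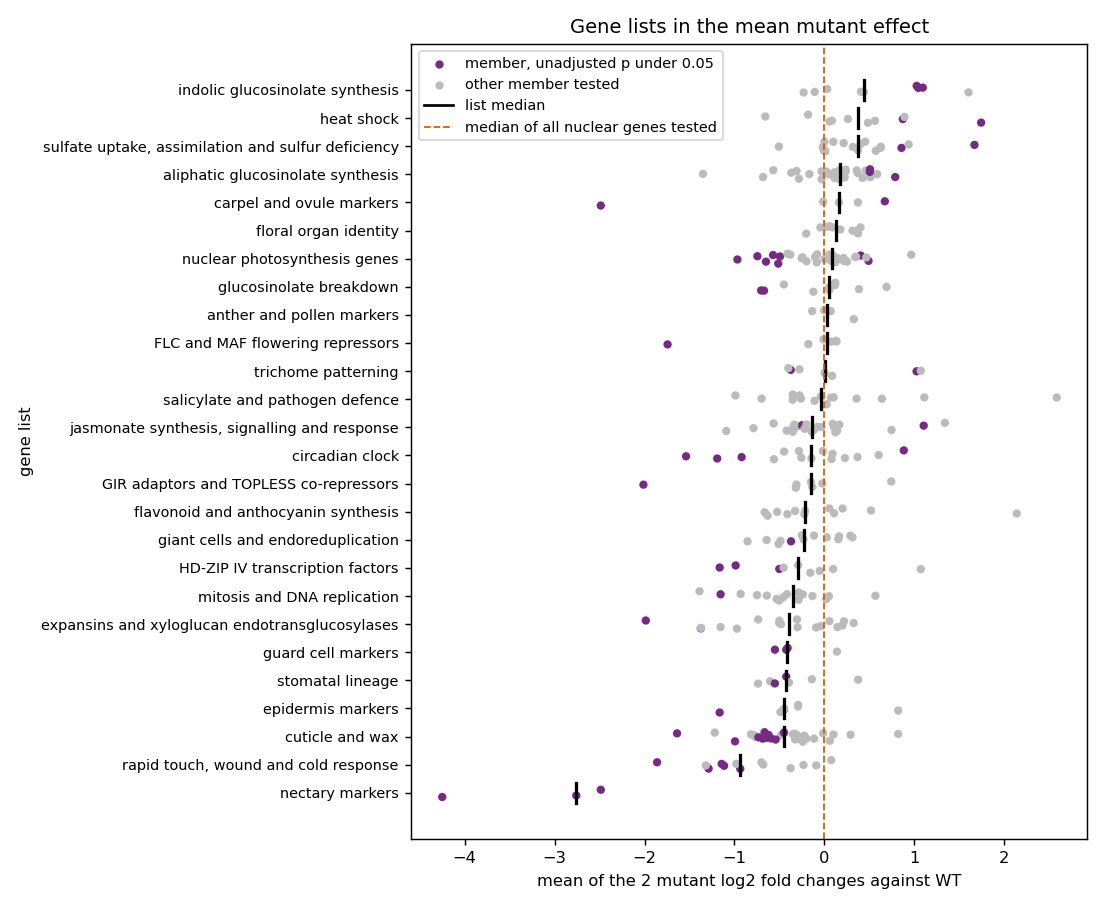
Mean of both mutant log2 fold changes for every tested member of 26 gene lists, sorted by list median; purple points have an unadjusted edgeR p under 0.05 regardless of sign agreement, black bars are list medians and the dashed line is the median of all genes, -0.01. Cuticle and wax, with 10 purple points of 31, and the touch, wound and cold list, with 5 of 13, lie mostly to the left.

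Glucosinolate synthesis genes had opposite or unequal values in the mutants. The 30 tested genes of aliphatic glucosinolate synthesis had a median of 1.68 in gir1-1 and -1.01 in atml1-3, and the median of their mean effects was 0.17, which turned to -0.02 and -0.08 without WT replicate 1 or 3. At an unadjusted p under 0.05 by edgeR with the same sign, 2 were higher and 0 lower (6.67%, and 0 to 4 higher with 1 library left out), both side-chain oxygenases, FMOGS-OX2 with 0.79 (SE 0.32) and FMOGS-OX4 with 0.51 (SE 0.21). For indolic glucosinolates 3 of 9 were higher (33.3%, beside 4.42% of all genes), with a median of 0.44: GSTF9, GSTF10 and CYP79B3. GSTF9, a glutathione transferase, was at 286, 352 and 282 CPM in WT, against 838, 727 and 1044 CPM in gir1-1 and 469, 548 and 330.2 CPM in atml1-3, so that 1 atml1-3 library lay within the WT range. GSTF10, its neighbour on chromosome 2, was at 31.0, 51.1 and 49.7 CPM in WT, against 70.2, 77.7 and 173 CPM in gir1-1 and 70.6, 107 and 52.7 CPM in atml1-3. All mutant values of GSTF10 were above WT, by a narrow margin in replicate 3 of atml1-3, and the mean mutant effects were 1.03 (SE 0.20) and 1.04 (SE 0.34). CYP79B3, which starts indolic glucosinolate synthesis from tryptophan, had 1.09 (SE 0.48), with its highest level, 30.8 CPM, in replicate 3 of gir1-1. Without that library 2 of the 9 were higher at an unadjusted p under 0.05 by edgeR.

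The myrosinase genes TGG1 and TGG2, whose enzymes break glucosinolates down, had lower values in both mutants without passing the threshold. TGG1 was at 2288, 2708 and 3708 CPM in WT, against 1871, 1623 and 1859 CPM in gir1-1 and 1532, 1741 and 2061 CPM in atml1-3. TGG2 was at 5372, 6027 and 7037 CPM in WT, against 4394, 3799 and 3934 CPM in gir1-1 and 3505, 3308 and 4244 CPM in atml1-3. Each gene had its 6 mutant libraries below its 3 WT libraries, and both mutants contributed alike, with log2 fold changes of -0.70 for gir1-1 and -0.71 for atml1-3 in the case of TGG1 and of -0.60 for gir1-1 and -0.74 for atml1-3 in that of TGG2. The mean mutant effects were -0.70 (SE 0.19) and -0.67 (SE 0.17), with an adjusted p of 0.388 for both by edgeR and of 0.0321 and 0.00516 by DESeq2. TGG1 and TGG2 are paralogues, and share 2.038% and 2.128% of their 32-base words with other places in the genome. They were the 2 of 12 genes of glucosinolate breakdown at an unadjusted p under 0.05 by edgeR (16.7%, beside 9.99% of all genes). The list median was 0.06. Both genes are expressed in guard cells and myrosin cells. Of the 4 guard cell markers 3 were lower and KAT1 was not, with the limits given above. The part of guard cells in the result was not tested.

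Genes of rapid responses to touch, wounding and cold had low values in many mutant libraries. Of 13 tested, 5 were lower and 0 higher at an unadjusted p under 0.05 by edgeR with the same sign (38.5%, beside 9.99% of all genes), and the median was -0.94, made of -0.18 in gir1-1 and -1.39 in atml1-3. ERF104, an ethylene response factor, was at 56.5, 17.3 and 59.7 CPM in WT, against 23.4, 11.4 and 26.2 CPM in gir1-1 and 17.0, 15.4 and 16.6 CPM in atml1-3. ZAT12, a zinc finger gene induced by many stresses, was at 104, 81.8 and 56.6 CPM in WT, against 53.9, 16.1 and 73.2 CPM in gir1-1 and 27.8, 30.4 and 26.2 CPM in atml1-3. TCH2, a calmodulin-like touch gene, was at 121, 88.5 and 78.0 CPM in WT, against 62.8, 16.8 and 82.9 CPM in gir1-1 and 46.5, 25.9 and 35.9 CPM in atml1-3. In all 3 genes the atml1-3 libraries and replicate 2 of gir1-1 were low and replicates 1 and 3 of gir1-1 reached or neared the WT range, and for ERF104 replicate 2 of WT was as low as the atml1-3 libraries. CBF2 and ZAT10 had -1.86 (SE 0.70) and -0.94 (SE 0.39). Without WT replicate 1 the count was 2 and the median -0.39, without gir1-1 replicate 3 they were 6 and -1.17, and without atml1-3 replicate 2 the count was 3. The part of harvest and handling in these values was not tested.

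Of 10 tested heat shock genes 2 were higher and 0 lower at an unadjusted p under 0.05 by edgeR with the same sign (20%, beside 4.42% of all genes that were higher), with a median of 0.37; without WT replicate 2 the count was 1. HSP23.5, a small heat shock protein gene, was at 0.630, 0.974 and 0.823 CPM in WT, against 2.43, 2.44 and 1.13 CPM in gir1-1 and 4.59, 2.22 and 4.35 CPM in atml1-3. HSP90.1 was at 7.91, 5.96 and 5.35 CPM in WT, against 10.5, 10.4 and 8.84 CPM in gir1-1 and 23.3, 8.87 and 9.72 CPM in atml1-3. All mutant values of these genes were above WT, and replicate 1 of atml1-3 was the highest in both. The mean mutant effects were 1.74 (SE 0.42) and 0.87 (SE 0.32), and HSP70-4, which did not reach an unadjusted p of 0.05 by edgeR, had 0.89.

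**Figure D5:**
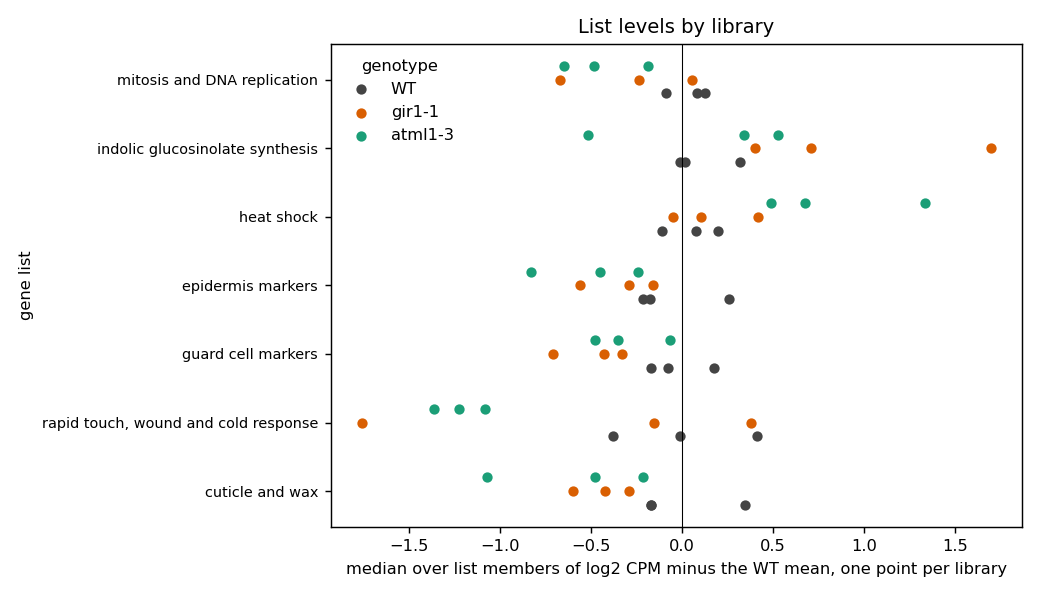
Median over the members of 7 gene lists of log2 CPM minus the WT mean, with a point for each library (WT grey, gir1-1 orange, atml1-3 green). In the touch, wound and cold list the atml1-3 points lie between -1.36 and -1.08 and gir1-1 spreads from -1.76 to 0.38; in cuticle and wax the mutants lie between -1.07 and -0.21 and WT between -0.17 and 0.34.

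Of 37 nuclear photosynthesis genes 6 were lower and 2 higher (21.6%, beside 9.99% of all genes) at an unadjusted p under 0.05 by edgeR, with a median of 0.08. The lower ones were mainly of carbon fixation: RBCS1B, RBCS2B and RBCS3B, small subunits of Rubisco, the Rubisco activase RCA (-0.75) and GAPA-1 (-0.57), with the photoprotection gene NPQ4 (-0.51). RBCS3B was at 7122, 9383 and 7459 CPM in WT, against 6838, 5735 and 4728 CPM in gir1-1 and 5626, 6020.1 and 5081 CPM in atml1-3. RBCS2B was at 1831, 3243 and 1636 CPM in WT, against 1321, 959 and 730.3 CPM in gir1-1 and 1509, 1463 and 941 CPM in atml1-3. RBCS1A, the small subunit gene with the most counts, was at 9930.4, 14482 and 9893 CPM in WT, against 10512, 7683 and 8180 CPM in gir1-1 and 8930.4, 9550.2 and 7935 CPM in atml1-3, overlapping with WT at a mean mutant effect of -0.38 (SE 0.20) and an unadjusted p of 0.0923 by edgeR. No mutant library reached the lowest WT library in RBCS1B, RBCS2B and RBCS3B, with mean mutant effects of -0.65 (SE 0.21), -0.97 (SE 0.27) and -0.49 (SE 0.18). These paralogues share between 16.38% and 32.779% of their 32-base words with other places, so their separate levels are uncertain. The higher ones were LHCB1.1 (0.49) and LHCA1 (0.40) of the light-harvesting antenna, whose effects were mostly from gir1-1. Without WT replicate 2 the counts were 2 lower and 0 higher, and the number higher was 0 to 5 with any 1 library left out.

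In the circadian clock list 3 of 15 were lower and 1 higher (26.7%, beside 9.99% of all genes), with a median of -0.14. RVE1, a MYB-like gene that links the clock to auxin, was at 169.7, 118 and 52.4 CPM in WT, against 35.1, 71.4 and 26.6 CPM in gir1-1 and 29.0, 36.0 and 37.9 CPM in atml1-3. WT replicates spread widely for RVE1, and replicate 2 of gir1-1 was above the lowest WT library, so the groups overlapped at a mean mutant effect of -1.54 (SE 0.36). LHY and CCA1, the morning genes, had -1.19 (SE 0.40) and -0.92 (SE 0.33), and FKF1, an evening photoreceptor gene, 0.88 (SE 0.38). Without WT replicate 2 the list held 1 lower gene and 0 higher, without any single atml1-3 library it held 0 higher, and without WT replicate 1 it held 4 higher and 3 lower. The part of the time of collection was not tested.

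The counts of the remaining lists are those at an unadjusted p under 0.05 by edgeR with the same sign, each to be read beside 9.99% of all genes. Among 18 expansin and xyloglucan endotransglucosylase genes 2 were lower (11.1%, beside 9.99% of all genes), XTH6 and XTH9. That count was 7 without WT replicate 1, 4 without WT replicate 2, 6 without atml1-3 replicate 1 and 1 without WT replicate 3, where the median of -0.39 turned to 0.05. XTH9 had 61.0 CPM in that library and at most 19.1 CPM in any other. In the sulfate list 2 of 17 were higher (11.8%), or 5 without WT replicate 2; the 2 were the vacuolar sulfate exporter SULTR4;2 with 0.86 (SE 0.24) and GGCT2;1, which degrades glutathione, with 1.67 (SE 0.51). For jasmonate 1 of 25 was higher, VSP2, and 1 lower, JAZ3 (8%). VSP2, a vegetative storage protein gene, was at 358, 865 and 951 CPM in WT, against 1599, 2034 and 2460.1 CPM in gir1-1 and 1229, 1633 and 727 CPM in atml1-3, so that 1 atml1-3 library lay inside the wide WT range. Among 7 trichome patterning genes ETC3 was higher (1.03) and TTG1 lower (28.6%). TTG1, a WD40 protein of trichome and pigment control, was at 74.7, 61.3 and 62.8 CPM in WT, against 45.8, 55.4 and 50.9 CPM in gir1-1 and 55.1, 48.1 and 51.4 CPM in atml1-3, with no overlap and a mean mutant effect of -0.37 (SE 0.12). No member of the salicylate, flavonoid, floral organ identity and anther lists, with 15, 12, 10 and 4 genes tested, reached an unadjusted p under 0.05 with the same sign by edgeR with all 9 libraries. Without gir1-1 replicate 3, the library that stood apart, 5 of the 15 salicylate genes were lower and the list median moved from -0.04 to -0.82. Of the 12 flavonoid genes 2 were lower without WT replicate 3 and 1 was higher without WT replicate 2. With all libraries, the members of these lists with the smallest p were PAD3 (2.58 (SE 1.38)), UGT75C1 (-0.63 (SE 0.29)), SEP2 (0.36 (SE 0.27)) and LAP6 (0.33 (SE 0.26)). PAD3, which makes the last step to the defence compound camalexin, was at 46.7 CPM in replicate 3 of gir1-1 and at most 4.58 CPM in any other library.

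Nectary and carpel markers gave a check on tissue. Their counts at an unadjusted p under 0.05 by edgeR stand beside 9.99% of all genes. CWINV4 and SWEET9 of the nectary were lower at an unadjusted p under 0.05 by edgeR (66.7% of 3 tested, and 1 of 3 without any single gir1-1 library), and CRC, expressed in carpels and nectaries, had opposite signs. The sum of the 3 nectary markers was 12.8, 7.42 and 1.76 CPM in WT, 0, 0.305 and 0.344 CPM in gir1-1 and 1.82, 5.74 and 6.20 CPM in atml1-3. These are low levels that differ mainly between gir1-1 and the rest. SHP1, a carpel gene, was at 4.35, 2.80 and 3.94 CPM in WT, against 4.36, 5.68 and 4.91 CPM in gir1-1 and 8.62, 4.39 and 7.99 CPM in atml1-3, with all mutant values above WT by a small margin and a mean mutant effect of 0.67 (SE 0.28); the 5 tested carpel and ovule markers held 1 higher gene (20%), and 0 without WT replicate 2 or without gir1-1 replicate 2 or 3.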

How the data were processed

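RNA sequencing of 9 sepal libraries was used as deposited. The authors' table gives, per the file headers, raw counts per gene and library, which were used for every test. It also holds FPKM values, which the authors made per gene length and library size, normalized mean counts (a signal per genotype pair), and a log2 fold change with its p-value for each pair of genotypes; of these only the deposited log2 values and p-values of MAF5 are quoted. Gene lengths in the deposited table were not used. The build was TAIR10, per the submitters' processing notes; aligner, counting program and use of strand are not given in the sources used here. Start and end coordinates matched the TAIR10.1 RefSeq annotation, from which upstream sequences were read.

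Genes of the plastid and mitochondrial sequences were left out before library totals were formed; they took 0.0950% to 0.121% of the counts in WT and 0.0397% to 0.0634% in the mutants. The counts were tested with edgeR 4.0.16 in R 4.3.3 (TMM scaling, filterByExpr, quasi-likelihood F test) in a single fit of genotype over 9 libraries with 6 residual degrees of freedom, using a contrast with weight 0.5 on each mutant against WT. Benjamini-Hochberg adjustment covered all 19082 genes with a threshold of 0.05, and a call also needs the same sign in each mutant. The standard error is the log2 value divided by the square root of F. Libraries within a genotype differed by more than sampling noise (chi-square per degree of freedom of 27.1 to 65.4), and each was taken as 1 replicate. That spread does not show whether the libraries came from separate plantings. Limits for counts of 0 use 3 counts per library and cover counting error only. DESeq2 1.42.0 and limma 3.58.1 served as alternatives. The edgeR and DESeq2 fits were tested on simulated counts.

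Named genes are GIR1, ATML1, every gene called, then up to 8 in each direction by the smallest p with the same sign, no overlap and a mean of at least 10 counts, and from each list the member with the smallest p; any other gene was picked after seeing its values. The members and the 26 gene lists were chosen with earlier results of these data known.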

Additional observations from a re-analysis of the deposited data

Results flagged for a closer look

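MAF5 was the gene called in the mean mutant effect, and its fall differed between the mutants. The log2 difference of atml1-3 minus gir1-1 was 1.94, with an adjusted p of 0.0178 by edgeR's quasi-likelihood test, and all 3 atml1-3 libraries, at 9.81 to 10.7 CPM, lay above all 3 gir1-1 libraries, at 2.55 to 2.87 CPM. The mean of both effects, -1.74, lies between the values of the mutants, -2.72 in gir1-1 and -0.77 in atml1-3. Groups of 3 libraries are too small for a search for single outlying libraries.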

How the results depend on the processing

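The count of 1 gene called, MAF5, was also 1 with DESeq2's size factors in the edgeR fit, with no filter on low counts, with at least 50 counts in 3 libraries and with an unadjusted p under 0.05 required in each mutant. It was 0 with total nuclear counts, with limma-voom, with limma-voom and library quality weights, with the replicate block and with the mutants as 1 factor, where 1948, 1828, 1485, 1694 and 1816 genes had an unadjusted p under 0.05 with the same sign. DESeq2's Wald test called 123 genes. With organelle genes kept it was 2, MAF5 and the plastid gene rbcL. Leaving out each library in turn gave 0 to 1, and the gene was MAF5 without WT replicate 1, BXL2 without WT replicate 2 and AT1G74820 without WT replicate 3. The count at an unadjusted p under 0.05 ranged from 1485 to 2366 over all settings, and that of genes without overlap from 949 to 2413 with 1 library left out, where fewer libraries make separation easier. MAF1, near 0 at -0.01, changed sign to 0.052 with total nuclear counts, to 0.012 with limma-voom and to 0.0062 with the replicate block, and ranged from -0.18 to 0.12 with 1 library left out. Over 66 named genes and all settings no other direction changed. Repeats of the list counts and list medians under these settings were chosen after seeing the data. Replicate numbers come from the sample titles. The correlation of deviations of same-numbered libraries was between -0.175 and 0.121, with 1 of 9 pairs above 0.1. Pairs with different numbers ranged from -0.256 to 0.205. These ranges overlap, and whether libraries of the same number were collected or handled together cannot be told from them. MAF5 under the block had -1.73 with an adjusted p of 0.102 by edgeR. The biological coefficient of variation was 0.30 with 3 libraries per genotype.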

Other observations

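Plastid and mitochondrial genes, which the comparison leaves out, took a smaller share of the counts in every mutant library than in any WT library. It was 0.121%, 0.0950% and 0.0974% in WT, against 0.0634%, 0.0590% and 0.0620% of the gir1-1 counts and 0.0628%, 0.0549% and 0.0397% of the atml1-3 counts. With these genes kept in the fit, the plastid gene rbcL, which encodes the large subunit of Rubisco, had a mean mutant effect of -1.42 (log2) and an adjusted p of 0.0189 by edgeR's quasi-likelihood test. Its nuclear partners RBCS1B, RBCS2B and RBCS3B were lower in all 6 mutant libraries as well, with -0.65, -0.97 and -0.49, whereas RBCS1A, the small subunit gene with the most counts, overlapped with WT at -0.38. The way RNA was selected for the libraries is not given in the sources used here, and its part in the organelle share was not tested.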
